A study of Mus musculus with 7 samples.

Results

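The unfolded protein response (UPR) and endoplasmic reticulum-associated degradation (ERAD) were followed through 33 genes in sorted mouse Paneth cells, after injury with dextran sulfate sodium (DSS) and on water. The genes were taken from a list that names the stress sensors, the chaperones of the endoplasmic reticulum (ER) and the ERAD machinery. All 33 were found by symbol among the 52550 genes counted. They comprised 3 genes of the IRE1-XBP1 branch, 4 of the ATF6 branch, 13 chaperones, cochaperones and lectins, and 13 ERAD genes.

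Polyadenylated RNA was sequenced from 7 libraries of small-intestinal crypt cells sorted by CD24 and side scatter. The mice were Lgr5-EGFP-IRES-CreERT2 on a C57BL/6J background, a line in which every mouse of both groups carries a green fluorescent protein and an inducible Cre at the Lgr5 locus. The 4 DSS libraries came from mice given 3% DSS in drinking water for 7 days and killed 3 days after its withdrawal, and the 3 controls came from mice left on water. Ages were 12 weeks for water 1, water 2 and DSS 1, and 10 weeks for the other 4 libraries. Library totals ran from 23175708 to 32451653 counts. The labels do not say outright that each library is 1 animal, so a p-value here reflects how these samples scatter, which may be technical. In such bulk RNA fewer Paneth cells in a sort cannot be told apart from less RNA per cell.

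Paneth cells fill granules with lysozyme and defensins and therefore run a large flow of protein through the ER. When unfolded protein builds up there, the sensor IRE1 splices Xbp1 mRNA into the message of an active transcription factor, and ATF6 moves to the Golgi, where a pair of proteases free its transcription factor domain. Both raise the genes of chaperones and of ERAD, the route by which misfolded proteins are pulled back into the cytosol and degraded. Xbp1 is known to be needed for mouse Paneth cells to form and to survive. Gene counts like these do not tell spliced from unspliced Xbp1 mRNA and hold no protein cleavage, so the activity of neither sensor was measured.

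The sorted cells carried the Paneth label in their RNA. The 8 Paneth markers, led by Lyz1, summed to between 223182 and 234768 CPM (counts scaled to library size, with TMM factors that correct for RNA composition) on water and between 108039 and 189986 in DSS. Of the 8, 3 had every DSS library below every water library, namely Lyz1, Defa24 and Itln1, against 7.51% of all genes tested. The groups of the others overlapped, and Ang4 and Mptx2 were highest in DSS 2, at 16898 and 8163 CPM. Granule genes held 33.1% to 35.2% of all counts on water and 30.8%, 26.8%, 21.6% and 21.7% in DSS 1 to 4. This share was lower in every DSS library than in every water library, and its part in the results below was not tested. Plasma cells also depend on this machinery. Of the 10 plasma cell markers, 7 were at 0 counts in at least 1 library, and the list's sum of 36.1 to 43.3 CPM on water and 38.7 to 44.8 CPM in DSS came almost wholly from Sdc1, which epithelial cells express as well. The 8 goblet markers summed to 7271, 7619 and 6266 CPM in water 1 to 3 and to 5843, 6679, 5623 and 10354 CPM in DSS 1 to 4. The sum was highest in DSS 4, where Fcgbp was at 4175 CPM, against 734 to 1914 CPM elsewhere. Zg16, Tff3, Spdef and Ccl9 were also highest in DSS 4, while Muc2, Clca1 and Agr2 were not. The enteroendocrine marker sum was 58.6 CPM in water 1, against 1299 and 2332 CPM in water 2 and water 3. In DSS it was between 407 and 1134 CPM, and its part in the results below was not tested.

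Per length, the chaperone genes Calr, Hspa5 and Hsp90b1 had the highest mean levels of the set. On water, the lectin chaperone Calr had a mean level of 281 RPKM (CPM divided by exon length in kilobases, from TMM-scaled libraries), ranging from 267 to 293 over the 3 libraries. Hspa5, encoding BiP, the main ER chaperone and a keeper of the sensors in their inactive state, followed at 258 (237 to 276), and these neighbours did not differ beyond their spread. Hsp90b1, the ER member of the HSP90 chaperones, was next at 197 (194 to 202), and its range overlapped that of Herpud1, which gathers the ERAD complex, at 167 (129.7 to 203). Xbp1 had 105 RPKM, with a range of 95.1 to 117 that overlapped those of the ERAD lectin Os9 and of Canx, the membrane-bound lectin chaperone. Levels of the ATF6 branch were far lower than that of Xbp1. They were 27 RPKM for Atf6b, 12.8 for Atf6, 10.7 for Mbtps1 and 2.47 for Mbtps2, the lowest of the set. Ern2, the IRE1 form of gut mucosal secretory cells, was at 50.4 (48.3 to 51.9) and the ubiquitous form Ern1 at 30.2 (27.7 to 32.8). These ranges did not meet. By CPM the order was the reverse, with a water mean of 149 for Ern2 and 247 for Ern1. The order per length rests on annotated exon lengths of 2964 and 8173 bases, which need not be those of the expressed transcripts. That limit holds for every level per length given here. The median of the 33 genes was 42.9 RPKM on water, against 4.0 for the 17449 genes tested.

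**Figure D1:**
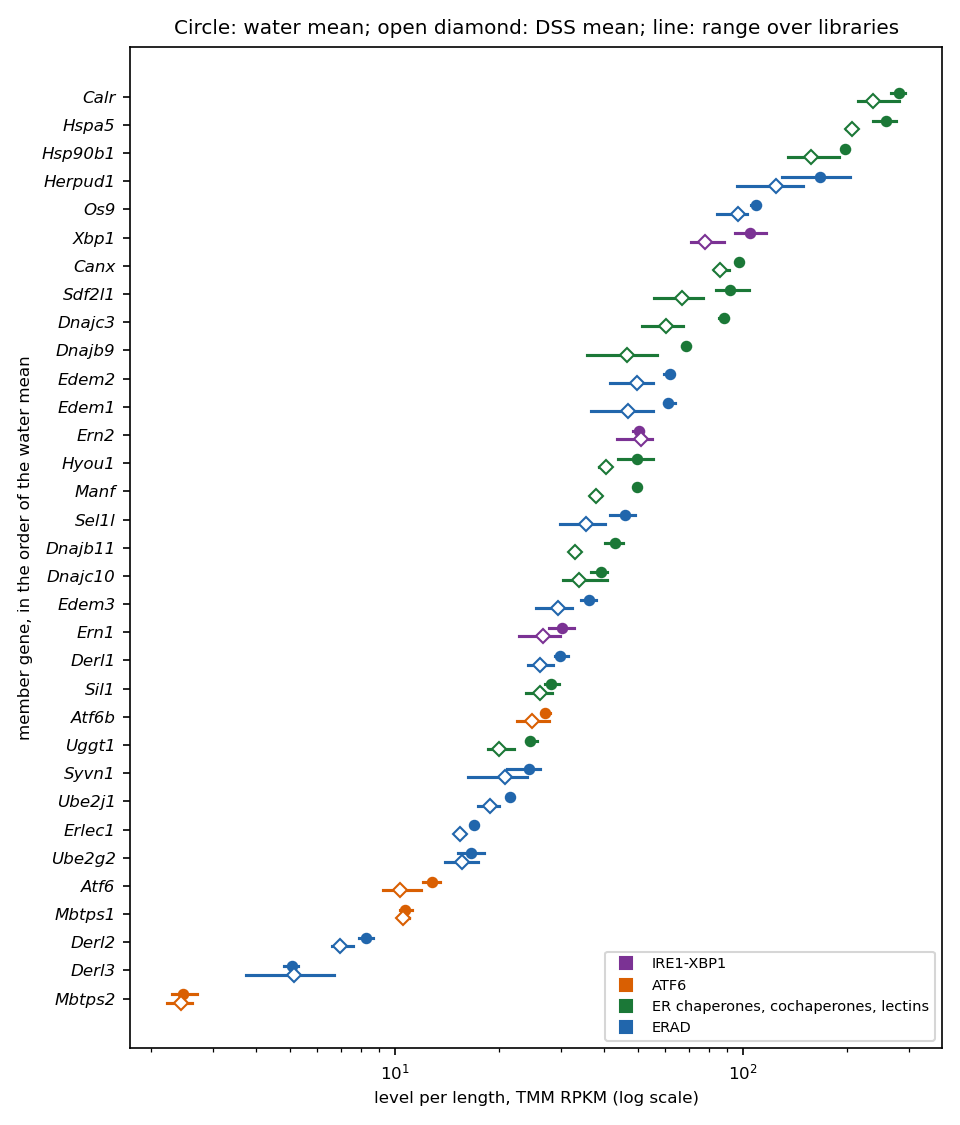
Level per length (TMM RPKM, log scale) of the 33 genes on water (circles, 3 libraries) and in DSS (open diamonds, 4 libraries), with lines for the range and colours for the branch. Calr, Hspa5 and Hsp90b1 lead in both groups and Mbtps2 is lowest in both.

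The order in DSS was nearly the same, with Calr, Hspa5, Hsp90b1, Herpud1 and Os9 again the first 5. Dnajb9, an inducible BiP cochaperone, moved from rank 10 to rank 13, and Ern2 from rank 13 to rank 10. Their ranges in DSS overlapped, at 35.7 to 56.8 RPKM for Dnajb9 and 43.7 to 54.8 RPKM for Ern2. The mean of Ern2 itself was 50.4 RPKM on water and 51.0 RPKM in DSS.

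What the set shares at its promoters was read from RefSeq windows of build GRCm38.p6, the assembly behind mm10, from 250 bases before to 50 bases after each annotated start. A window was at hand for 25 of the 33 genes, and the other 8 were Ern2, Atf6, Hyou1, Manf, Sil1, Derl1, Erlec1 and Ube2g2. The ER stress response element (ERSE), to which ATF6 and XBP1 bind beside the CCAAT factor NF-Y, was searched on both strands as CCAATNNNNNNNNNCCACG. It occurred in 7 of the 25 genes (28.0%), namely Calr, Canx, Derl3, Dnajc3, Hsp90b1, Hspa5 and Syvn1, and in 37 of all 27025 genes with a window (0.137%). By window of the same length of 300 bases, 39 of 32851 held it (0.119%). The related ERSE-II, which is ATTGG, 1 base of any kind and CCACG, lay in the windows of Dnajb11 and Herpud1 (8.0%) and in those of 12 genes overall (0.0444%). It shares CCACG with the ERSE. The core of the UPR element, TGACGTGG, lay in 1 of the 25, the ERAD ubiquitin-conjugating enzyme Ube2j1, as CCACGTCA from base -68 to -61, against 0.714% of all genes. The shorter ACGTG, which lies inside that core, was in 11 of 25 (44.0%) and in 21.8% of all genes. Among the 10951 tested genes with a window the shares were higher. They were 0.201% for the ERSE, 0.0822% for ERSE-II, 1.0% for the UPR element core and 28.5% for ACGTG. A match describes letters in the window and was not tested as a binding site. The elements were known from genes of the ER stress response, from which the set was also drawn. Their share in the set is therefore no independent result.

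Promoter windows follow for the 6 genes with an ERSE or ERSE-II match that had the smallest p-values in the comparison of DSS with water, so that the element can be read beside the values of those genes. Each is printed 5′ to 3′ in the direction of its gene, with the matched element in capitals. Their places are chr16:22857595-22857894 (plus strand) for Dnajb11, chr14:118937682-118937981 (plus) for Dnajc3, chr2:34771840-34772139 (plus) for Hspa5, chr10:86705395-86705694 (minus) for Hsp90b1, chr11:50325624-50325923 (minus) for Canx and chr8:94386179-94386478 (plus) for Herpud1.
Dnajb11: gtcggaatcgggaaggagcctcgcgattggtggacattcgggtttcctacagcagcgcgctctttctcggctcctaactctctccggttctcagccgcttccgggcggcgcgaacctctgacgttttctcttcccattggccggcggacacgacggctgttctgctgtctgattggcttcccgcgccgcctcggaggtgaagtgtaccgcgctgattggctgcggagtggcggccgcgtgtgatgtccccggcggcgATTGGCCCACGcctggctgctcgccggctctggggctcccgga
Dnajc3: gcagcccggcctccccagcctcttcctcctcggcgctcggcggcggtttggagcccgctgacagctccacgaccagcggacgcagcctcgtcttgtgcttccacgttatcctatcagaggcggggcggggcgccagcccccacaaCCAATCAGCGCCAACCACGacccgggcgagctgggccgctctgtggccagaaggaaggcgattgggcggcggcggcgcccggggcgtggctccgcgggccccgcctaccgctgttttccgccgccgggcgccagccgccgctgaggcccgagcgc
Hspa5: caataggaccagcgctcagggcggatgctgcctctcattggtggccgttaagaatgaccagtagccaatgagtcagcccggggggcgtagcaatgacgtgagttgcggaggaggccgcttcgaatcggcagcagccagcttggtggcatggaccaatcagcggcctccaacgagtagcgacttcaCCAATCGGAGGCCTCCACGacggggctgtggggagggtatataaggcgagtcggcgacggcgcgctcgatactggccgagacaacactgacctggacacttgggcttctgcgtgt
Hsp90b1: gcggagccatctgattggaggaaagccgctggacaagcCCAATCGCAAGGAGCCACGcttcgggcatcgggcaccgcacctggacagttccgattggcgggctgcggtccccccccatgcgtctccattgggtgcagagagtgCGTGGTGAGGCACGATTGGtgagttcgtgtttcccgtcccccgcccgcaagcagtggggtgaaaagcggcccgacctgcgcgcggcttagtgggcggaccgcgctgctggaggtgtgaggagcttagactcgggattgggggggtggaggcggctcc
Canx: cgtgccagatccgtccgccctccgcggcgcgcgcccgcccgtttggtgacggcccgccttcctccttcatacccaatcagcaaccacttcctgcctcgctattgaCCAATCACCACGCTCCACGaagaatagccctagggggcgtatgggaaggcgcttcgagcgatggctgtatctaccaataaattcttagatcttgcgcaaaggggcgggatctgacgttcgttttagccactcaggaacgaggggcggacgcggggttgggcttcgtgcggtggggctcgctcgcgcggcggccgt
Herpud1: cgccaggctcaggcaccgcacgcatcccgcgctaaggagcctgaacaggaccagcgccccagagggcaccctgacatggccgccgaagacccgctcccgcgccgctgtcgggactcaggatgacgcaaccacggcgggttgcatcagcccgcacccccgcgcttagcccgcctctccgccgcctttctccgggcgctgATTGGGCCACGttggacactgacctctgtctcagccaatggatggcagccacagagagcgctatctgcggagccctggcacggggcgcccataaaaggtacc

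With the first transcribed base as 1, the ERSE of Hspa5 ran from base -65 to -47, that of Dnajc3 from -105 to -87 and that of Canx from -145 to -127. Hsp90b1 held a pair of them, from -212 to -194 and, in the reverse direction, from -107 to -89. The ERSE-II of Herpud1 ran from -52 to -42, while that of Dnajb11 lay behind the annotated start, from 8 to 18.

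Estimates for 31 of the 33 genes were lower in DSS than on water, by a modest amount, and the 2 others, Ern2 and Derl3, were close to 0. No gene passed the main test. In 21 of the 33 genes every DSS library lay below every water library, against 7.51% of the 17449 genes tested, and in 0 every DSS library lay above, against 7.40%. By branch these were 1 of 3 IRE1-XBP1 genes, 1 of 4 ATF6 genes, 10 of 13 chaperones and 9 of 13 ERAD genes. The median log2 change, DSS relative to water, was -0.17, -0.07, -0.32 and -0.24 in the same order and -0.25 over all 33, where the median of all genes tested was -0.0015.

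edgeR's quasi-likelihood test, adjusted by Benjamini-Hochberg over all 17449 genes at a threshold of 0.05, called 0 of the 33 lower and 0 higher, as it called 0% of all genes in either direction. Adjusted p-values in the set ran from 0.123 to 0.977. At an unadjusted p under 0.05 there were 22 of the 33 lower, where 7.35% of all genes were, and 0 higher, where 8.36% were. DESeq2, an alternative count test, called 12 of the 33 lower and 0 higher at the same threshold, against 2.24% and 2.62% of the 13223 genes to which it gave an adjusted p. The 12 were Xbp1, the chaperone genes Hspa5, Hyou1, Sdf2l1, Manf, Dnajb9, Dnajb11, Dnajc3 and Uggt1, and the ERAD genes Edem2, Edem3 and Sel1l. limma-voom with quality weights called 0 of the set.

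**Figure D2:**
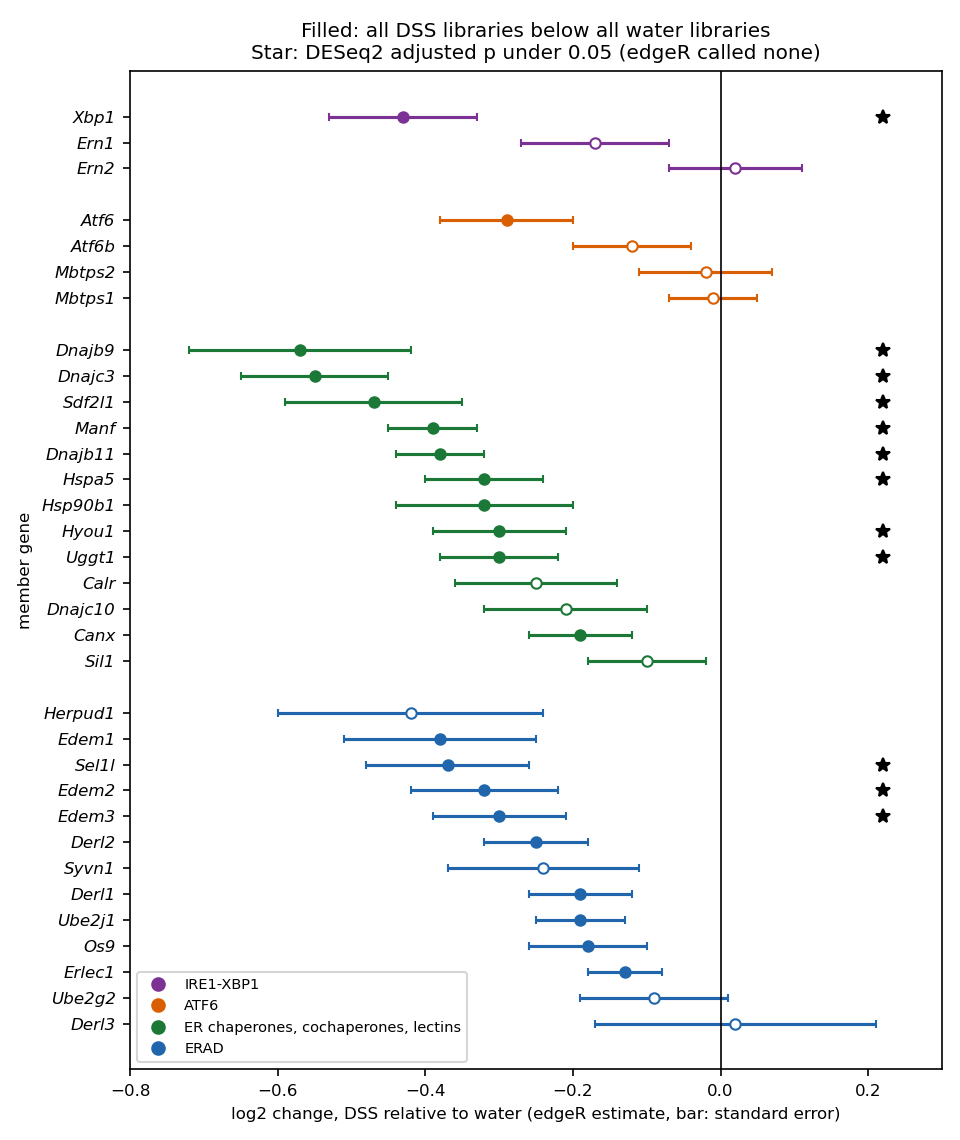
Log2 change in DSS relative to water (x axis, edgeR estimate with its standard error) for the 33 genes by branch (y axis). Filled points mark the 21 genes whose groups do not overlap and stars the 12 genes that DESeq2 called, while edgeR called 0.

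In the IRE1-XBP1 branch, groups overlapped for both sensors and not for the transcription factor. Xbp1 (ENSMUSG00000020484.18, chr11:5520659-5525893, plus strand) was at 309, 381 and 331 CPM in water 1 to 3 and at 288, 233, 231 and 259 CPM in DSS 1 to 4. The groups did not overlap, with DSS 2 and DSS 3 lowest and DSS 1 near water 1. Its log2 change was -0.43 ± 0.10 (SE), with an edgeR adjusted p of 0.142 and a DESeq2 adjusted p of 0.00469, which was also the lowest over all 18 alternatives, the highest being 0.44. Ern1, encoding IRE1-alpha, was at 245, 268 and 226 CPM on water and 245, 229, 186 and 214 CPM in DSS. Its groups overlapped, since DSS 1 and DSS 2 lay within the water range (log2 change -0.17 ± 0.10, edgeR adjusted p = 0.449). Ern2 was at 154, 143 and 151 CPM on water and 162, 151, 129 and 161 CPM in DSS, where DSS 3 was the lowest of the 7 libraries and DSS 1 the highest (0.02 ± 0.09, edgeR adjusted p = 0.954).

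Ratios within a library do not depend on how libraries are scaled to each other. Per length, Xbp1 stood at 317%, 357% and 368% of Ern1 on water and at 296%, 256%, 312% and 305% in DSS, so every DSS library lay below every water library. The 12 such ratios computed within the set were chosen after values were seen, this was the 1 of them whose groups did not overlap, and none was tested. No such share was computed over ratios of other gene pairs, so this ratio does not set Xbp1 apart. Ern2 stood at 168% ± 19.0 of Ern1 on water (SD, n = 3) and at 191% ± 11.7 in DSS (SD, n = 4), and these groups overlapped.

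**Figure D3:**
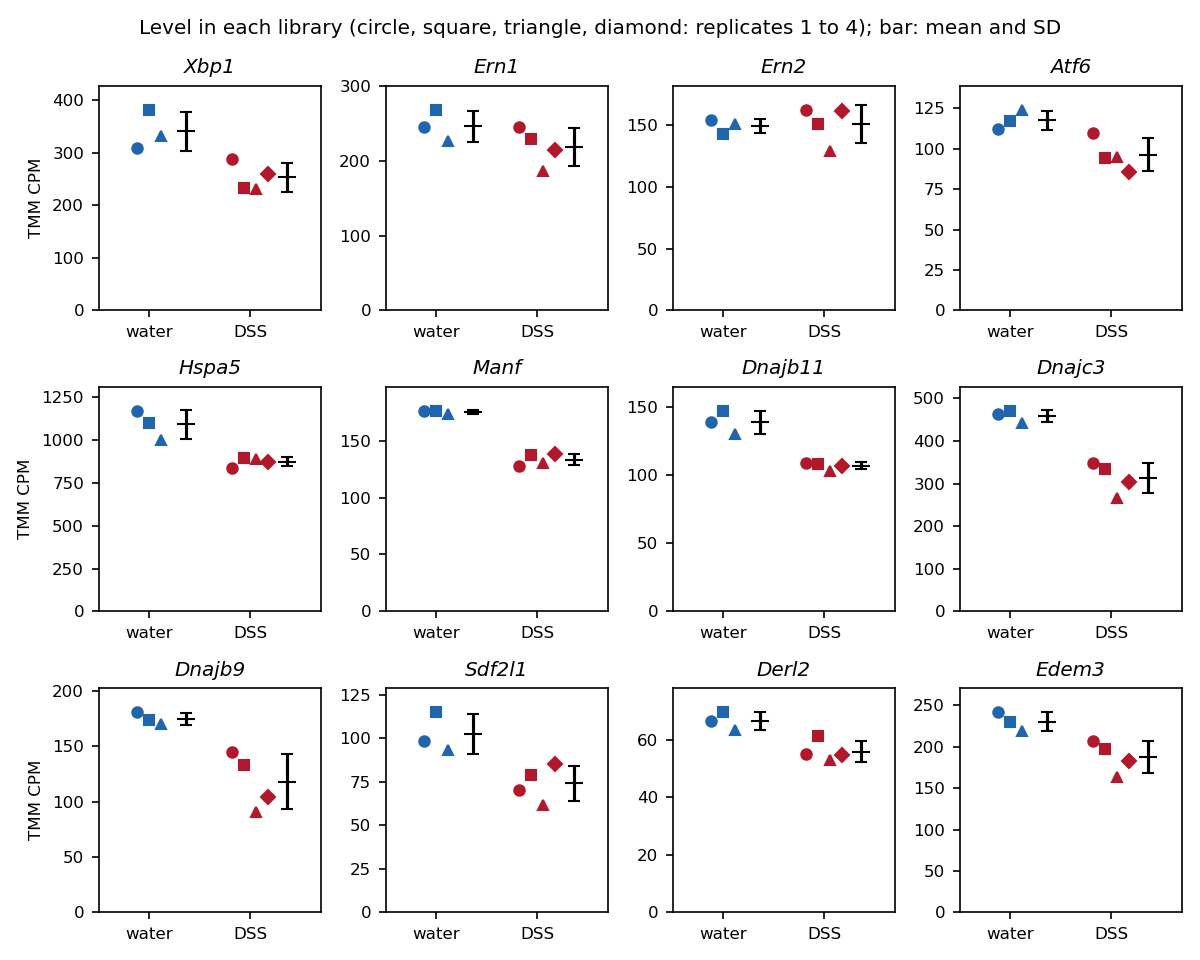
TMM CPM (y axis, from 0) of 12 genes in each library, with the mean and SD beside the points for 3 water and 4 DSS libraries. Points of the groups overlap for Ern1 and Ern2 and do not for the other 10 genes.

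The ATF6 branch held the smallest differences. Atf6, the sensor itself, was at 112, 117 and 124 CPM on water and 110, 94.2, 95.2 and 85.4 CPM in DSS. The groups did not overlap, although DSS 1 and water 1 lay close together (log2 change -0.29 ± 0.09, edgeR adjusted p = 0.187). Its paralogue Atf6b was at 74.5 ± 2.18 CPM on water (SD, n = 3) and 68.7 ± 6.59 CPM in DSS (SD, n = 4), with DSS 2 inside the water range. Mbtps1 and Mbtps2 encode the site-1 and site-2 proteases that cut ATF6 in the Golgi. Mbtps1 was at 113 ± 4.45 and 112 ± 3.60 CPM and Mbtps2 at 25.0 ± 2.16 and 24.6 ± 2.07 CPM in water and DSS, differences smaller than the spread between libraries. Reads of Mbtps2 are uncertain, since 28.4% of its exon bases are also annotated as exons of Yy2 on the same strand.

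Among the chaperones, Manf, Dnajb11 and Dnajc3 had the smallest p-values of the set. Manf (ENSMUSG00000032575.16, chr9:106838312-106891979, minus strand), a secreted protein that binds BiP, was at 176, 176 and 173 CPM on water and 128, 137, 130.4 and 138 CPM in DSS. Both groups were tight and far apart (log2 change -0.39 ± 0.06, edgeR adjusted p = 0.123, DESeq2 adjusted p = 1.62e-06, range over the alternatives 1.62e-06 to 0.44). By p-value it ranked 5 among all genes tested, and 9.25% of its exon bases are shared with Dcaf1, Rbm15b and another gene. Dnajb11, which hands unfolded clients to BiP, was at 139, 147 and 129.9 CPM on water and 109, 108, 103 and 107 CPM in DSS (-0.38 ± 0.06, edgeR adjusted p = 0.123, DESeq2 adjusted p = 5.89e-05, range 5.89e-05 to 0.471). Dnajc3, the BiP cochaperone also known as an inhibitor of the kinase PERK, was at 463, 470 and 443 CPM on water and 349, 333, 267 and 304 CPM in DSS. Its DSS libraries were all under the lowest water library, DSS 3 by the most (-0.55 ± 0.10, edgeR adjusted p = 0.123, DESeq2 adjusted p = 2.38e-05, range 2.38e-05 to 0.44).

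Dnajb9 had the largest estimate of the set. This cochaperone, which also turns off IRE1 by bringing BiP to it, was at 181, 174 and 170.4 CPM on water and 145, 133, 90.9 and 104 CPM in DSS, a log2 change of -0.57 ± 0.15. DSS 3 and DSS 4 were the lowest, and DSS 1 was nearest to water. Sdf2l1, a partner of the Dnajb11 protein, was at 98.5, 115 and 93.2 CPM on water and 70.5, 78.9, 61.5 and 85.1 CPM in DSS (-0.47 ± 0.12). edgeR adjusted p-values were 0.157 for Dnajb9 and 0.149 for Sdf2l1.

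Hspa5 (ENSMUSG00000026864.13, chr2:34771970-34777547, plus strand) was at 1168, 1100 and 1002 CPM on water and 837, 896, 886 and 870 CPM in DSS. Here the 4 DSS libraries lay close together and the water libraries were spread (-0.32 ± 0.08, edgeR adjusted p = 0.162, DESeq2 adjusted p = 0.0012, range 0.0012 to 0.742). Hyou1, a large ER chaperone that helps BiP exchange its nucleotide, was at 360.2 ± 40.6 CPM on water (SD, n = 3) and 292 ± 8.63 CPM in DSS (SD, n = 4). Uggt1, which re-marks misfolded glycoproteins for another round of folding, was at 314 ± 13.7 and 256 ± 19.2 CPM. Sil1, the other nucleotide exchange factor of BiP, was at 47.5 ± 2.49 and 44.5 ± 3.83 CPM and its groups overlapped.

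The lectin chaperones and Hsp90b1 differed among the DSS libraries. Calr was at 812, 843 and 769 CPM on water and 619, 647, 648 and 813 CPM in DSS, so that DSS 4 lay inside the water range and the other 3 below it. Hsp90b1 was at 813, 781 and 785 CPM on water and 566, 543, 662 and 761 CPM in DSS, with DSS 4 again the highest of its group but below water. Its value is less certain, since 15.7% of its exon bases are shared with other annotated genes. Dnajc10, an ER reductase of the same cochaperone family, was at 204 CPM in both water 3 and DSS 4 and between 152 and 165 CPM in DSS 1 to 3. Canx was at 459 ± 4.62 CPM on water (SD, n = 3) and 404 ± 19.0 CPM in DSS (SD, n = 4), where no library reached the water range. DSS 4 was also the library with the highest goblet marker sum, though not with the highest Muc2. The part of goblet cells in these values was not tested.

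ERAD begins with mannosidases that mark misfolded glycoproteins. Edem1 was at 412, 386 and 384 CPM on water and 357, 324, 236 and 294 CPM in DSS, with DSS 3 the lowest and no overlap (-0.38 ± 0.13, edgeR adjusted p = 0.218). Edem2 was at 219, 217 and 207 CPM on water and 192, 186, 144 and 165 CPM in DSS, and Edem3 at 242, 230.4 and 219 CPM on water and 207, 197, 163 and 183 CPM in DSS. The DSS libraries of all 3 genes kept 1 order, DSS 1 highest, then DSS 2, DSS 4 and DSS 3. Os9 and Erlec1, the lectins that receive the marked clients, were at 288 ± 8.11 and 255 ± 22 CPM and at 55.0 ± 0.933 and 50.2 ± 1.19 CPM in water and DSS, and neither had overlapping groups.

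The complex that moves and ubiquitinates clients is built on the adaptor SEL1L and the ligase HRD1, encoded by Syvn1. Sel1l was at 398, 420.5 and 357 CPM on water and 345, 329.6, 255 and 288 CPM in DSS (-0.37 ± 0.11, edgeR adjusted p = 0.199, DESeq2 adjusted p = 0.0354, range 0.0354 to 0.64). Syvn1 was at 123, 125 and 101 CPM on water and 104, 114, 77.7 and 99.2 CPM in DSS, and DSS 1 and DSS 2 lay above water 3. Herpud1 spread most among the water libraries, at 392, 472 and 303 CPM, and was at 347, 323, 225 and 269 CPM in DSS, so its groups overlapped in spite of a log2 change of -0.42 ± 0.18.

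The Derlins, membrane proteins of the exit channel, split. Derl2 was at 66.7, 69.7 and 63.4 CPM on water and 55.0, 61.2, 53.1 and 54.6 CPM in DSS, with no overlap (-0.25 ± 0.07, edgeR adjusted p = 0.166). Derl1 was at 94.0 ± 4.38 CPM on water (SD, n = 3) and 82.4 ± 5.96 CPM in DSS (SD, n = 4), also with no overlap. Derl3, the Derlin of professional secretory cells, was low, at 10.3, 10.5 and 9.61 CPM on water, and ranged most in DSS, at 7.45, 8.54, 13.3 and 11.7 CPM. DSS 1 and DSS 2 lay below water and DSS 3 and DSS 4 above it (0.02 ± 0.19, edgeR adjusted p = 0.977). Of the ubiquitin-conjugating enzymes, Ube2j1, anchored in the ER membrane, was at 75.6 ± 1.18 and 66.3 ± 3.84 CPM in water and DSS with no overlap, and Ube2g2, a soluble one, at 40.4 ± 3.55 and 37.9 ± 4.06 CPM with overlap.

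**Figure D4:**
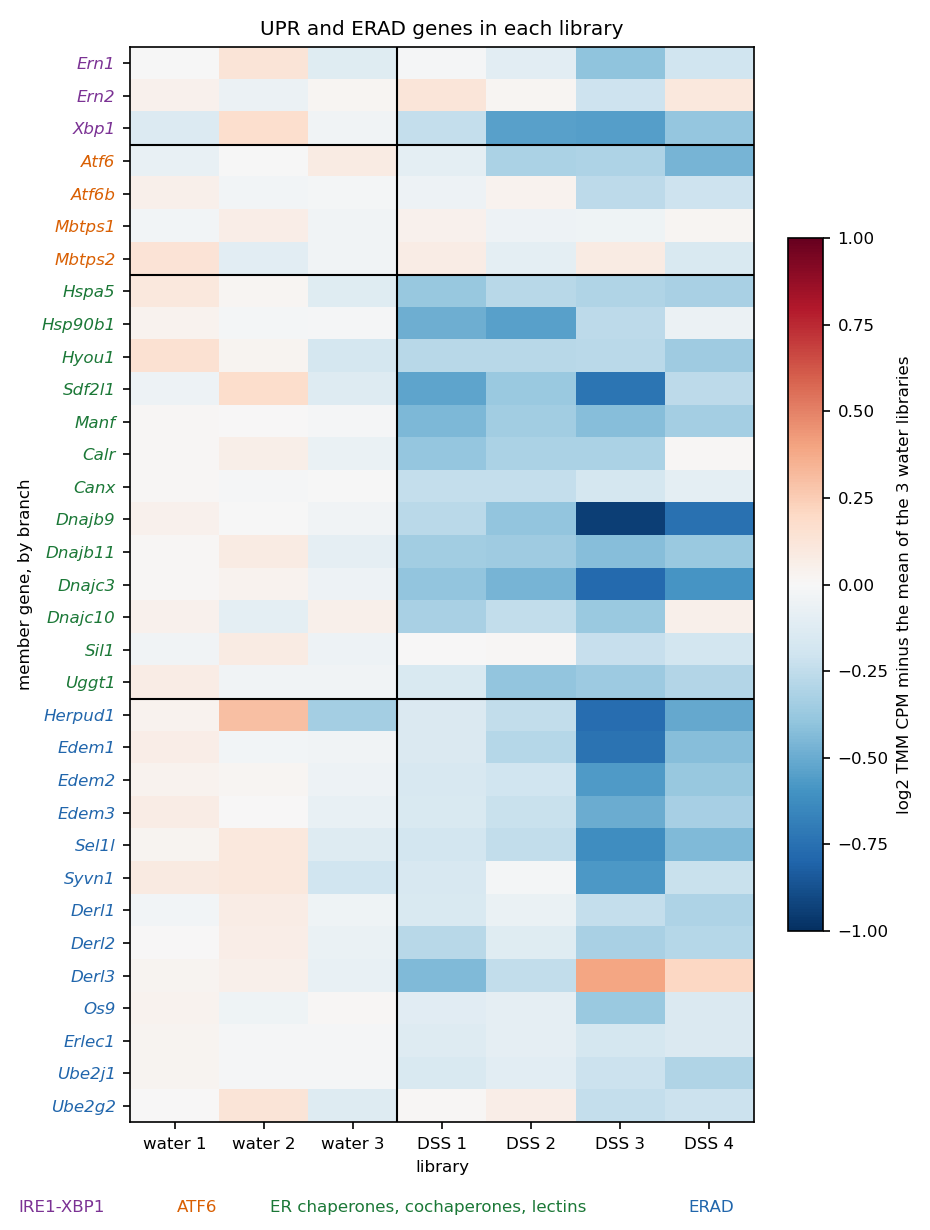
Each cell gives the log2 TMM CPM of a gene (y axis, grouped and coloured by branch) in a library (x axis) minus its mean over the 3 water libraries. Most chaperone and ERAD rows are below 0 in all 4 DSS libraries, and Derl3 is above 0 in DSS 3 and DSS 4. DSS 3 is lowest in 20 of 33 rows, and the same share over all genes was not computed.

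Chaperones and ERAD genes were ordered differently across the DSS libraries. The mean log2 level of the 13 chaperones relative to water was -0.33, -0.33, -0.43 and -0.27 in DSS 1 to 4, all well outside the -0.06 to 0.03 of the water libraries. For the 13 ERAD genes it was -0.17, -0.14, -0.38 and -0.27, against -0.09 to 0.06 on water. DSS 3 was the lowest of the 7 libraries for 10 of 13 ERAD genes and for 6 of 13 chaperones. DSS 1 and DSS 2 were each lowest for 3 chaperones. The share of all genes lowest in DSS 3 was not computed, so these counts may reflect the library as much as the genes. The difference between the branches was not tested. DSS 3 and DSS 4 were also the libraries with the smallest granule shares, 21.6% and 21.7%. The tuft cell marker sum was 842 and 845 CPM in DSS 2 and DSS 3 and between 428 and 498 CPM in the other 5 libraries, and its part in these values was not tested.

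In summed levels, the 13 chaperones held 4899 to 5291 CPM on water and 3992 to 4394 CPM in DSS, the ERAD genes 2190 to 2483 and 1618 to 2123 CPM, the IRE1-XBP1 genes 708 to 792 and 547 to 695 CPM and the ATF6 branch 326 to 332 and 287 to 324 CPM, without overlap in any of the 4 on this scale. Other scales differed. As a plain share of all counts the ATF6 branch turned direction, with 0.0298% to 0.0306% on water and 0.0317% to 0.0335% in DSS, higher without overlap, and the other 3 branches overlapped. As a share of the counts outside the granule genes the chaperones and the ERAD genes were lower without overlap. On that scale the ATF6 branch overlapped, at 0.0446% to 0.0463% on water and 0.0411% to 0.0459% in DSS, as did the IRE1-XBP1 genes, at 0.0968% to 0.11% and 0.0797% to 0.0982%. Over all 33 genes the plain share was 0.779% ± 0.0272 on water and 0.743% ± 0.0436 in DSS, and the groups overlapped. Outside the granule genes their share was 1.18% ± 0.0473 and 0.995% ± 0.0387, from 1.13% to 1.22% on water and from 0.94% to 1.03% in DSS, without overlap.

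Scaling by library totals alone changed the picture. The median of the 33 genes was then -0.016 while that of all genes stood at 0.23. Rescaling shifts every gene by nearly the same amount, so the distance between these medians is kept by construction. Manf, Dnajb9 and Dnajc3 kept every DSS library below every water library, against 1.0% of all genes, and Ern2, Mbtps1 and Sil1 had every DSS library above, against 31.6%. edgeR then called 1 of the 33 lower, Dnajc3, where it called 0.160% of all genes. Size factors by median of ratios, and TMM computed without the granule genes, each gave 21 genes without overlap as before.

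**Figure D5:**
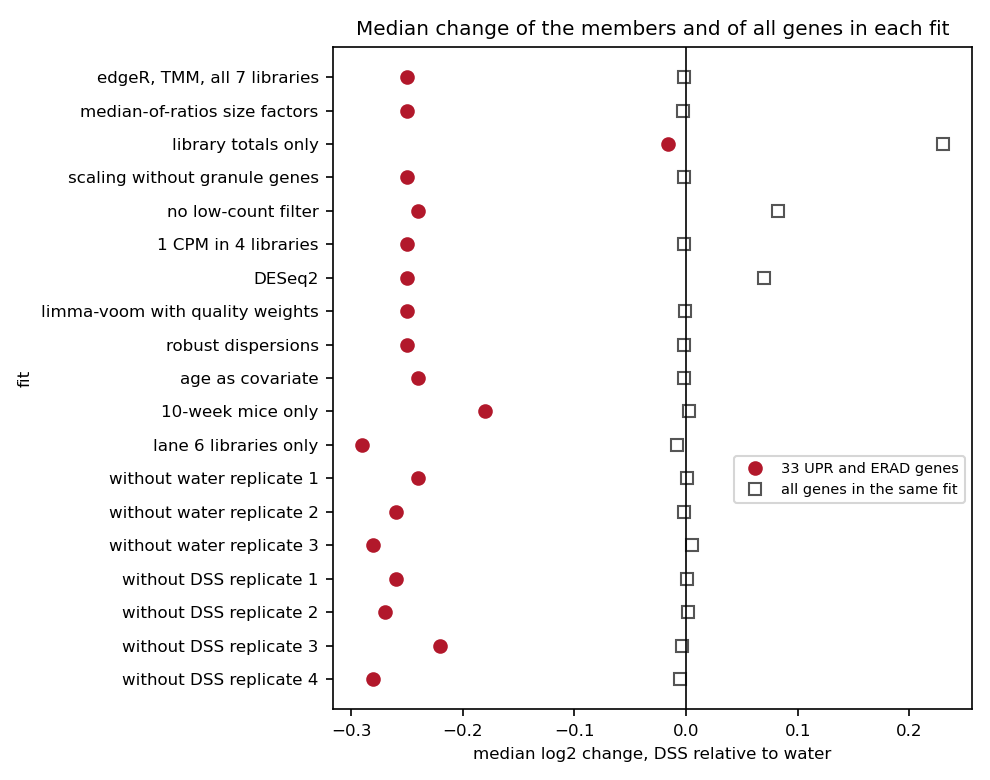
Median log2 change (x axis) of the 33 genes (filled) and of all genes in the same fit (open squares) for the main fit and 18 alternatives (y axis). The set lies below all genes in each fit, between -0.29 and -0.016, and library totals shift both medians upward. Where only the scaling differs, the distance between the medians is kept by construction.

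Leaving out DSS 1 gave edgeR calls. Without it, 3 of the 33 passed as lower, Manf, Dnajb11 and Dnajc3, against 0.779% of all genes. With no filter on low counts 6 passed, namely Manf, Xbp1, Dnajb9, Dnajc3, Sdf2l1 and Dnajb11, against 0.573%. The age groups could be looked at apart. At 12 weeks, DSS 1 lay below both water libraries in 28 of 33 genes, against 31.2% of all genes. At 10 weeks, DSS 2 to 4 all lay below water 3 in 22 of 33, against 29.2%. DSS 4 shares a sequencing lane number with the water libraries and lay below all 3 of them in 28 of 33, against 28.9%. Titles of water 3, DSS 2 and DSS 3 share a number whose meaning is not given. Among these, DSS 2 and DSS 3 both lay below water 3 in 24 of 33, against 36.8%. Each split reuses the same libraries, so the 21 genes without overlap over all libraries count in it by construction. The splits are therefore no separate support. RNA was isolated on days that each held mice of 1 group, so day and treatment cannot be told apart.

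Genes of the pathway outside the set were described from 3 lists. None of their genes passed edgeR in either direction, and at an unadjusted p under 0.05 there were 7 lower and 0 higher, 10 and 1, and 1 and 1, in the order given here, where 7.35% of all genes were lower and 8.36% higher. The counts of the third list are near those shares. Among 12 genes of the PERK branch and the integrated stress response, 5 had every DSS library below water and 0 above, with a median log2 change of -0.37, and DESeq2 called 1 lower, Atf4. Over all genes the shares were 7.51% below, 7.40% above and 2.24% called lower by DESeq2. Atf4, the transcription factor of that branch, was at 271, 305 and 250.2 CPM on water and 231, 231, 187 and 206 CPM in DSS. Eif2ak3, encoding PERK, was at 66.0 ± 2.84 CPM on water (SD, n = 3) and 50.6 ± 9.27 CPM in DSS (SD, n = 4). Chac1 and Trib3, targets of the branch, were far higher in water 2 than elsewhere, with Chac1 at 29.9, 100.2 and 20.8 CPM on water and 19.0, 7.95, 2.03 and 3.86 CPM in DSS. Trib3 was at 5.62, 19.7 and 4.28 CPM on water and 4.28, 2.27, 0.79 and 1.09 CPM in DSS.

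Among 31 other ER quality control and ERAD genes, 10 had every DSS library below water and 1 above, with a median of -0.16, and DESeq2 called 3 lower, to be read against the same 7.51%, 7.40% and 2.24%. The 3 were Selenok (60.9 ± 3.70 and 45.1 ± 5.53 CPM) and Selenos (125 ± 5.95 and 96.9 ± 14.0 CPM), both selenoproteins of ERAD complexes, and Ubxn4 (178 ± 7.27 and 145 ± 10.1 CPM), which tethers the extracting ATPase to the ER, each in water and DSS. Ngly1, which strips glycans from extracted clients, was at 46.2 ± 2.13 and 39.0 ± 2.97 CPM. The 1 above was Rtcb, the RNA ligase that rejoins Xbp1 mRNA after IRE1 has cut them, singled out after its values were seen, at 99.4, 97.7 and 93.9 CPM on water and 106, 107, 117 and 105 CPM in DSS (log2 change 0.17 ± 0.06, edgeR adjusted p = 0.248). Of 10 other ER stress transducers and brakes, Creb3l2, a membrane-bound transcription factor of secretory cells, was the 1 that DESeq2 called, at 91.1, 84.6 and 82.8 CPM on water and 79.7, 64.6, 51.6 and 52.8 CPM in DSS. In that list 1 gene, Creb3l2, had every DSS library below water and 1 had every DSS library above, against 7.51% and 7.40% of all genes, and the median was -0.04. The 1 above was Bak1, a pro-apoptotic protein that can bind IRE1, at 32.7, 33.4 and 35.1 CPM on water and 35.6, 41.1, 38.4 and 36.3 CPM in DSS (log2 change 0.16 ± 0.07, edgeR adjusted p = 0.294).

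The 9 genes with an ERSE or ERSE-II in their window had a median log2 change of -0.32, from -0.55 for Dnajc3 to 0.02 for Derl3, and 5 had groups without overlap. The 16 genes whose window held no exact match to either had a median of -0.27, from -0.57 for Dnajb9 to -0.01 for Mbtps1. Of these, 11 had groups without overlap. Elements with other letters or farther from the start were not searched. The 8 genes with no window at hand had a median of -0.16, and 5 had groups without overlap. Over all genes tested 7.51% had every DSS library below water. No test was made between them.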

How the data were processed

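Per the file headers, the authors made the deposited raw counts per gene with featureCounts 1.5.3 on GENCODE M15 exons, counting primary alignments with at least 0.8 of the read inside a gene and without a strand setting, so overlapping or antisense genes cannot be told apart. Per the submitters' processing notes, mm10, DESeq2, STAR 2.5.3a and featureCounts 1.5.2 were used. Symbols came from GENCODE M21 and matched 52403 of 52550 identifiers. The genes, lists and tests were chosen with earlier results of these data known, and the within-library ratios after seeing values. Replicates were numbered in accession order. All library pairs differed by more than sampling noise, the lowest chi-square over its degrees of freedom being 14.2.

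edgeR 4.0.16 in R 4.3.3 compared 4 DSS with 3 water libraries without covariates: filterByExpr kept 17449 genes, including all 33 of the set, with TMM factors of 0.8988 to 1.144, and Benjamini-Hochberg adjustment over all of them. The step was also run on simulated data, with changes larger in size than every estimate in the set. That run therefore does not show how often changes as small as these would be called. DESeq2 1.42.0 and limma 3.58.1 were alternatives, beside other scalings, filters of none or 1 CPM in 4 libraries, robust dispersions, age, 10-week mice, lane 6 and leaving out each replicate. All genes of the set were given, most with values per library or a mean and SD. The 18 genes named under the alternatives were Xbp1, Ern1, Ern2, Atf6, Hspa5 and up to 5 with the smallest p-values per branch. From each further list up to 4 genes with the smallest p-values were given, and Rtcb was added after its values were seen. Protein sequences were not used here. Marker lists for tuft, enteroendocrine, enterocyte, stem, cycling, leukocyte, and endothelial and mesenchymal cells summed to 451 to 498, 58.6 to 2332, 274 to 341, 2911 to 3508, 651 to 836, 9967 to 10256 (nearly all Lyz2, also a Paneth gene) and 0.669 to 17.0 CPM on water, and to 428 to 845, 407 to 1134, 242 to 377, 2715 to 3469, 539 to 712, 3776 to 7103 and 4.12 to 7.77 CPM in DSS.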

Additional observations from a re-analysis of the deposited data

Results flagged for a closer look

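Among the 4 DSS libraries, 37 series of values (33 genes and 4 branch means) were searched for 1 library far from the rest, by the gap to its neighbour divided by the whole range, against Dixon's critical value for 4 samples. Chance passes that limit in about 5% of series, and 2 did, 5.41%. Calr had a ratio of 0.851, with DSS 4 at 813 CPM and the others at 619, 647 and 648 CPM. Hyou1 had a ratio of 0.871, with DSS 4 at 279.6 CPM and the others at 296, 296 and 298 CPM, a small gap in a tight group.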

How the results depend on the processing

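No paired analysis was possible because the replicate numbers were given in accession order and carry no pairing, and the 1 title number found in both groups covers only water 3, DSS 2 and DSS 3. Within those 3 libraries, chosen after seeing the data, 24 genes of the set lay lower in both DSS libraries. By construction they include the 21 genes without overlap over all libraries. Of 324 values for the 18 named genes under 18 alternatives, 283 kept their direction and stayed above the threshold, 20 kept their direction and passed it and 21 changed sign. Library totals turned Ern1 to 0.054, Atf6b to 0.11, Mbtps2 to 0.21, Mbtps1 to 0.23 and Ube2j1 to 0.043, by their construction, as the median of all genes became 0.23. The other sign changes were in genes near 0. Mbtps1 was 0.002 with no low-count filter, 0.0026 in limma-voom, 0.019 with age, 0.014 in 10-week mice and 0.012 in lane 6, and -0.023 to 0.026 without single replicates. Mbtps2 was 0.015 with age and -0.076 to 0.046 without single replicates, and Ern2 -0.036 in 10-week mice and -0.019 to 0.083 without single replicates.

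Genes of the set called lower were 1 with library totals, 6 with no filter, 12 in DESeq2 and 0 to 3 without single replicates, the 3 being without DSS 1. Over all genes, 28 were called lower and 2107 higher with library totals, 201 and 240 with no filter, 296 and 346 in DESeq2 and 6 and 3 in lane 6 libraries, where DSS 4 is assumed to vary like water. Without single replicates 0 to 135 were called lower and 0 to 168 higher, both most without DSS 1, and 9 higher without DSS 4. The causes were not tested. The set's median of -0.25 moved to -0.016 with library totals and -0.18 in 10-week mice, where water 3 is assumed to vary like DSS, and was -0.28 to -0.22 without single replicates. With library totals, 3 genes of the set lay wholly below water and 3 wholly above. The smallest count in the set was 169, for Derl3, which also had the largest SE, 0.19.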
